A study of Mus musculus with 14 samples.

Results

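The regions described here are stretches of chromatin away from promoters that opened within 2 h of GATA6 induction and were still open at 48 h. They were chosen by their peak calls, as regions with a midpoint over 1 kb from every protein-coding transcription start site (TSS) that were called in neither 0 h library, in both 2 h libraries and in both 48 h libraries. This rule selected 1740 of 98941 distal regions, 1.76% of them, out of 121891 regions on the autosomes. A region is a run of overlapping peaks merged over all libraries, and it counts as called in a library that has a peak there. Because the calls at 0, 2 and 48 h selected the members, those calls are given as a description, and tests were run on the libraries of 4 to 24 h, which the rule did not use.

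Accessibility was measured by ATAC-seq, in which a transposase inserts sequencing adapters into open DNA, in KH2 mouse embryonic stem (ES) cells of C57BL/6 background. All groups carried the same doxycycline (Dox)-inducible transgene, TRE:GATA6-DSREd2, in a single line, and the 0 h cells carried it without Dox. The 0 h cells grew in 2i/LIF medium. The cells of 2, 4 and 8 h were in serum medium with LIF and Dox at 1 µg/mL, and those of 16, 24 and 48 h received Dox for 12 h and then serum medium without it. Induction and the change of medium therefore cannot be told apart, since serum medium without any Dox treatment was not among the groups. There were 2 libraries of 50000 cells at each of the 7 time points, 14 in all. The labels do not say whether they came from separate cultures, so that p-values measure the spread between these libraries, which may be technical.

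Primitive endoderm (PrE) is the blastocyst lineage from which the yolk sac endoderm derives, and GATA6 is the zinc-finger transcription factor that specifies it against the pluripotent epiblast. GATA factors bind the short sequence WGATAR, where W is A or T and R is A or G, and can bind it in closed chromatin. Distal open regions are often enhancers, which are bound by several factors and act on genes at a distance. AP-1, made of Fos and Jun proteins, is a dimer that responds quickly to serum and growth factors and binds its own short sequence.

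The lists held between 54301 and 63667 autosomal peaks per library. They hold no read counts, and the read numbers that the study gives in its supplementary data were not used here. Depth was therefore not taken into account, and a region without a call may be open below the calling threshold. Most promoter calls did not separate the cell states. The TSSs of the ES cell genes Pou5f1, Sox2 and Esrrb and of the PrE genes Gata6, Sox17, Sox7 and Pdgfra were called in both libraries at 0 h and at 48 h. So were those of Cdx2 and Pax5, genes of other lineages. The TSS of the PrE gene Gata4 was called in 1 library at 0 h and in both at 48 h, and that of the ES cell gene Klf4 in 1 at each. Among the genes checked, the TSS of Nanog was called in both 0 h libraries and in neither 48 h library. It followed the labelled change only at these end points. In between, 1 library called it at 2 h and at 24 h, both at 4 h and at 16 h, and neither at 8 h.

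The sequences of 8 members are shown as examples of the pattern described below, in which most members hold GATA sequences in their central 200 bases and a minority holds none. Each run is the central 200 bases of a member on the plus strand of GRCm38, read 5′ to 3′ from the reference genome. Capitals mark the 4 spellings of WGATAR on either strand. These spellings are AGATAA, the form ending in G, which is AGATAG, and the forms with a leading T, which read TGATAA or else end in G as TGATAG. On the other strand the first of them reads TTATCT. The member in Cubn, whose product cubilin is an endocytic receptor, has 4 matches, and that in Lrp2, which encodes its partner megalin, has 3. The member beside Lamc1, a laminin chain gene, has 2, and that beside the chromatin reader gene Spin1 has 3. The members beside Gfpt2, a hexosamine pathway enzyme gene, and in Itpr1, a calcium channel gene, were among those with most matches, 5 each, and in Itpr1 the last 2 matches share 1 base. The member beside Klf5, a pluripotency factor gene, has 3, but 0 complete matches in its central 120 bases. The member in Col4a2, a collagen IV chain gene, has 0.
Cubn intron, chr2:13489514-13489713: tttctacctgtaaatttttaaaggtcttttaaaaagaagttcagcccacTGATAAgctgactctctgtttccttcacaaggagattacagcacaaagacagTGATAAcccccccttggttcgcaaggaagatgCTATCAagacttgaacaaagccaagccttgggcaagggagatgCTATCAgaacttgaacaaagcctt
Lrp2 intron, chr2:69582916-69583115: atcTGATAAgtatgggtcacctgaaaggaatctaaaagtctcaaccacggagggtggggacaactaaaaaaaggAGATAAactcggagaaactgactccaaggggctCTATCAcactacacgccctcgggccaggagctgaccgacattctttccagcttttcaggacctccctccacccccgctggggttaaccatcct
beside Lamc1, chr1:153358728-153358927: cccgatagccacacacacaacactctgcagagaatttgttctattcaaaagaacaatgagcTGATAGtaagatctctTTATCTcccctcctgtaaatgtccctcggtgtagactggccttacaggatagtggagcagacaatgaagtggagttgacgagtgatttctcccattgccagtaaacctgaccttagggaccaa
beside Spin1, chr13:51063057-51063256: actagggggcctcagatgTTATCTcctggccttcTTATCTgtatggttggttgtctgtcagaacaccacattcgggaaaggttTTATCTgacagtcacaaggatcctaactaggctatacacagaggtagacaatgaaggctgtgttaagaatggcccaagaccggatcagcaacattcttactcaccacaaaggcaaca
beside Gfpt2, chr11:49781991-49782190: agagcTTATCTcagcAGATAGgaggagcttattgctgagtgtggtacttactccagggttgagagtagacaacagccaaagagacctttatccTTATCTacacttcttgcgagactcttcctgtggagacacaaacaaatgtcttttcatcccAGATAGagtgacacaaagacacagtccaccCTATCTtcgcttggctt
Itpr1 intron, chr6:108472767-108472966: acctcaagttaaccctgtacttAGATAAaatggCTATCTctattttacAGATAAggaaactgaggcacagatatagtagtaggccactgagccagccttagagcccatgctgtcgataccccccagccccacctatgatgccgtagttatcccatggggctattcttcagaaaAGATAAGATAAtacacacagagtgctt
beside Klf5, chr14:99331431-99331630: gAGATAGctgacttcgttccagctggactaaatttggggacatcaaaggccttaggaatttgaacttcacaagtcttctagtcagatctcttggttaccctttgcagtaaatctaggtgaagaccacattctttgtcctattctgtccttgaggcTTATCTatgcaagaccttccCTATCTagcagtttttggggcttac
Col4a2 intron, chr8:11393347-11393546: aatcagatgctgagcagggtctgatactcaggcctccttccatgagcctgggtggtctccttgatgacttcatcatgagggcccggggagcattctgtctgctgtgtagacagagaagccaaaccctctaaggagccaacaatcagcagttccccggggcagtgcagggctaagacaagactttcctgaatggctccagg

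Of the 98941 distal regions, 9805 were opened at 2 h, called in both 2 h libraries and in neither 0 h library, which is a background of 9.91%. Of these 9805, 17.7% were members, 77.0% were in neither 48 h library and 5.25% were in 1 of the 2. Regions gained at 48 h by the same rule numbered 15418, or 15.6% of distal regions, and members made up 11.3% of them. The rule has thresholds on several sides. A further 1139 regions met every condition but had a call in 1 of the 2 libraries at 0 h, 1066 had 1 of 2 calls at 2 h and 515 had 1 of 2 at 48 h. On the distance side, 217 regions with the same calls lay 1 kb or less from a TSS. The nearest member was 1006 bp from a TSS and the nearest excluded region 985 bp.

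The conditions at 0 h and 2 h depended on single libraries to a like extent. Leaving the 0 h library of replicate 1 out of the rule gave 2188 regions, of which that library itself called 20.5%. The same test with replicate 2 gave 2431 regions and 28.4%, a mean of 24.4% ± 5.62 (SD, n = 2). Leaving out a 2 h library gave 2371 and 2175 regions, and a 48 h library 2026 and 1969. A member without a call at 0 h is thus not shown to have been closed there.

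The members were open at nearly every time point in between. They were called in 91.0% and 92.6% of cases in the 4 h libraries, 91.5% and 91.3% in those of 8 h, 89.1% and 92.1% for 16 h, and 89.8% and 91.8% for 24 h. The time points overlapped, and no difference over them was detected (F = 0.320, adjusted p = 0.848, one-sided exact permutation test, 8 libraries). The smallest p this design allows is 0.00952. With the 50000 highest peaks of each library, the difference between time points passed the threshold (F = 13.3, adjusted p = 0.0381, exact permutation test).

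The 7550 regions that opened at the same time but were in neither 48 h library were called less often at each later time point. At 4 h 64.9% ± 2.30 were called, then 41.1% ± 0.805 (8 h), 22.1% ± 2.15 (16 h) and 8.61% ± 0.393 (24 h; SD, n = 2 for each). The share of members called was higher in 8 of 8 libraries, by 57.0 ± 22.1 percentage points (SD, n = 8; adjusted p = 0.0156, two-sided exact sign-flip permutation test). The unadjusted p of 0.0078125 is the smallest that 8 libraries allow, and the gap was lowest at 26.1 points at 4 h and highest at 82.9 points at 24 h. The groups were split by their 48 h calls, so a gap in this direction could be foreseen. The test therefore cannot say more than that split does, and its SD includes the change over time. The 5777 regions first called in both libraries at 48 h were called at 1.47% at 2 h and 13.9% at 24 h. Their rule allowed no earlier time point with calls in both libraries, so that low values there could be foreseen.

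**Figure D1:**
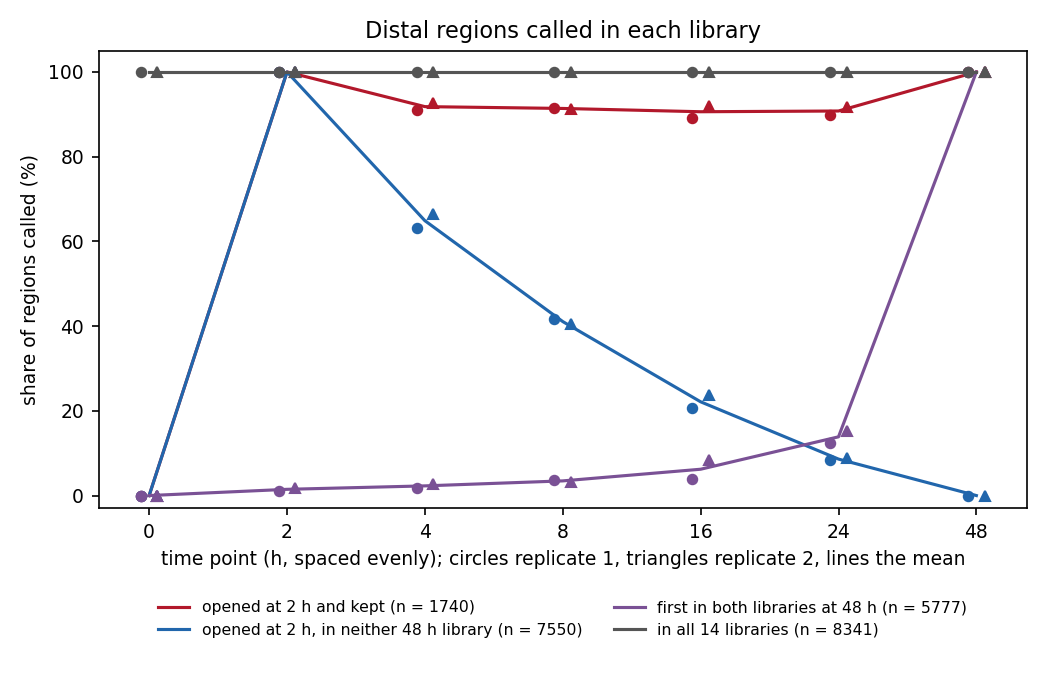
Share of distal regions called (%, vertical axis) in each of the 14 libraries by time point (h, horizontal axis), for members and 3 comparison groups; circles are replicate 1, triangles replicate 2 and lines the mean. For members and regions absent at 48 h, values at 0, 2 and 48 h are fixed by the rules. Between them members stay between 89.1% and 92.6%, while regions absent at 48 h fall from 64.9% to 8.61%. The rule for regions first called in both libraries at 48 h keeps their earlier values low. Regions called in all 14 libraries are fixed throughout.

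Of the 1740 members, 1306 (75.1%) were called in all 12 induced libraries. Across all distal regions, 16.9% were called in all 8 libraries of 4 to 24 h, but this background asks for no call at 2 h or 48 h. Of 9638 distal regions called in both libraries at 0, 2 and 48 h, 8341 were called in all 14 libraries. Among regions in neither 48 h library, 354 (4.69%) were called in all 8. Gaps were uncommon: 76 members had no call in either 4 h library, and the numbers for 8, 16 and 24 h were 89, 99 and 91. Only 10 members were called in none of the 8, so that they were seen at 2 h and 48 h alone. The regions in introns of Agrn, the gene of the basement membrane proteoglycan agrin, and of Irs2, an insulin receptor adaptor gene, were among these. The Irs2 region had score percentiles of 24.1 and 28.4 at 2 h and of 68.6 and 75.5 at 48 h.

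Each peak carries a score on an unstated scale, which was ranked within its library and is given as a percentile of that library's autosomal peaks. At 2 h the members ranked near the middle of their libraries, with median percentiles of 43.0 and 46.5. The regions later absent at 48 h had nearly the same rank, 40.9 and 44.5, a gap of 2.07 and 2.06 points in replicates 1 and 2. At 4 h the medians of members were 74.4 and 76.2, and the gap was 28.1 and 28.2 points. The 2 h score thus ordered the 2 kinds of region only slightly, whereas at 4 h they were far apart in both libraries.

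The rank of members then varied with time. Their median percentile was 75.3 ± 1.24 (4 h), 78.9 ± 1.27 (8 h), 79.1 ± 0.800 (16 h), 69.5 ± 0.117 (24 h) and 59.1 ± 0.603 (48 h; SD, n = 2 for each). The difference over 4 to 24 h passed the threshold (F = 42.0, adjusted p = 0.0381, one-sided exact permutation test, 8 libraries), with both 24 h libraries below the other 6. The 8 h and 16 h medians lay within the spread between replicates of each other. Leaving out the 4 h library of replicate 1 or either 16 h library ended the call, with adjusted p of 0.0635, 0.0508 and 0.0508 (exact permutation test). Taking the replicate number as a block ended it too, with an adjusted p of 0.111 (exact permutation test within replicate number). Members outranked regions absent at 48 h in 8 of 8 libraries, by 37.8 ± 7.49 points (SD, n = 8; adjusted p = 0.0156, two-sided exact sign-flip permutation test). This direction, too, could be foreseen from the split by 48 h calls, and the SD includes the change over time.

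Ranks depend on what else is in a list, so distal regions called in all 14 libraries were followed as a reference. Their median percentile moved from 70.0 ± 1.48 at 2 h to 73.9 ± 1.49 at 4 h, and from 74.8 ± 1.03 at 16 h to 71.9 ± 0.373 (24 h) and 64.4 ± 0.481 (48 h; SD, n = 2 for each). The mean rank was higher at 4 h than at 2 h in 1173 of the 1306 members called in all induced libraries (89.8%), with a median change of 23.1 points, against 62.4% of the reference regions and 2.11 points. It was higher at 24 h than at 16 h in 24.9% of these members, with a median change of -4.96 points, against 42.5% and -1.35 points. The highest rank of a member fell most often at 16 h (30.3% of the 1306) or 8 h (28.5%), and least often at 2 h (3.75%). In the reference regions 16 h was also the most frequent, with 20.7%, while 8 h held 14.5% and 2 h 16.0%. Members had to lack calls at 0 h and hold them at 2 h, whereas the reference regions were called at 0 h as well. The rise from 2 h and the few highest ranks at 2 h may thus be shaped by the rule, and they are given as a description.

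**Figure D2:**
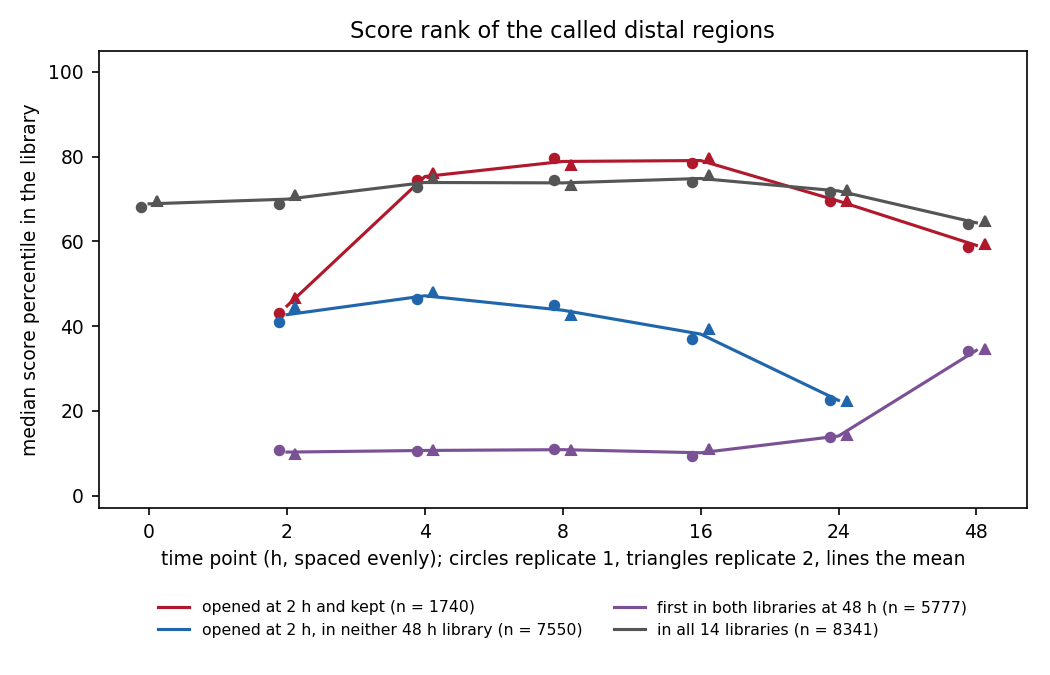
Median score percentile within the library (vertical axis) of the distal regions called there, by time point (h, horizontal axis), for members and 3 comparison groups; circles are replicate 1, triangles replicate 2 and lines the mean. Members and regions absent at 48 h start about 2.07 points apart at 2 h and are 28.1 points or more apart from 4 h on.

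The sequences of the members were then examined, a property that the rule did not use. Within 200 bp around the centre, 1196 members (68.7%) held a GATA match as spelled out above. The share was 41.8% in regions opened at 2 h and absent at 48 h, 56.4% in those first called at 48 h, 28.2% in those called throughout and 39.8% in all distal regions. The permuted sequence WAGTAR, with the same W and R, was found in 23.9% of members and 22.9% of all distal regions. The median GC content of members was 48.5%, as in the regions absent at 48 h. After the comparison groups were brought to the GC content of the members, their shares were 40.6%, 54.2% and 37.3%.

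The size of this difference depended on how many libraries defined the members. When regions were defined from the libraries of a single replicate number, which gave 3466 and 3603 members, the GATA share was 54.4% ± 0.0892 in members, 40.3% ± 0.00317 in regions absent at 48 h, 28.5% ± 0.195 in those called throughout and 54.4% ± 0.583 in those first called at 48 h (SD, n = 2 definitions). The differences from the regions absent at 48 h and from those called throughout exceeded this spread, and the difference from those first called at 48 h did not. With all libraries the latter was 12.3 points. It was 6.51 and 3.33 points without the 0 h library of replicate 1 or 2, and 6.54 and 8.17 points without the 2 h library of replicate 1 or 2.

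Members often held several matches. Of all members, 566 (32.5%) had 2 or more in the 200 bp, against 12.1% of regions absent at 48 h, 22.9% of those first called at 48 h and 5.92% of those called throughout. AGATAA made up 47.2% of the matches in members and 41.0%, 36.7% and 36.0% in these groups. The matches were densest at the centre. There were 16.6 and 15.3 matches per 100 members in the 25 bp on either side of it, against 4.54 and 5.17 in the outermost 25 bp of a 500 bp flank. In regions absent at 48 h the central values were 7.80 and 8.08.

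**Figure D3:**
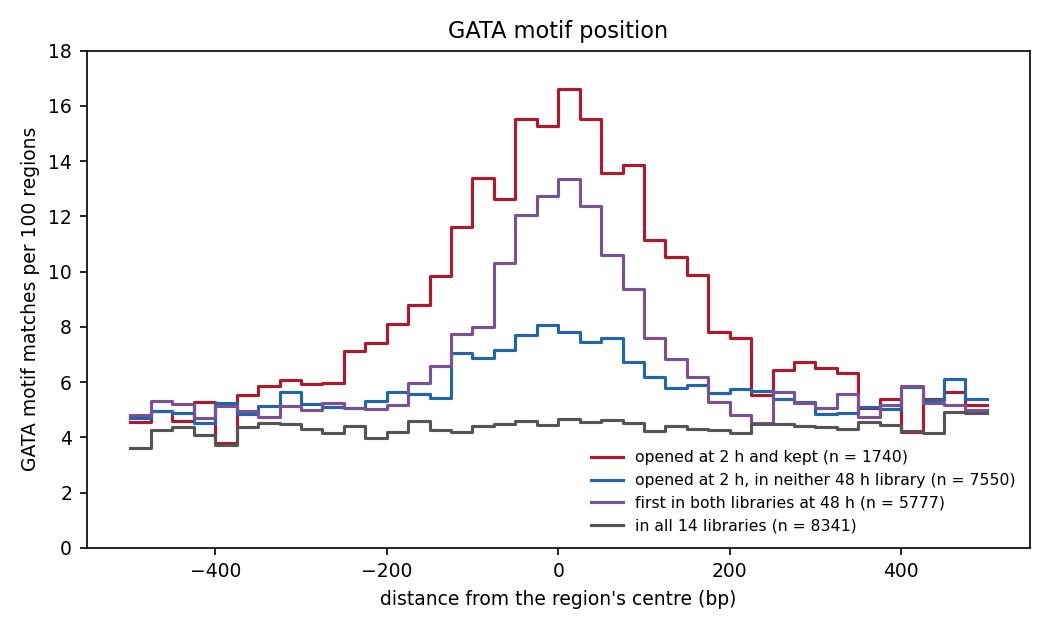
GATA matches per 100 regions (vertical axis) in bins of 25 bp by distance from the region's centre (bp, horizontal axis), for members and 3 comparison groups. Members reach 16.6 at the centre and fall to about 5 at 500 bp, regions first called at 48 h reach 13.4, and regions called in all 14 libraries are nearly flat.

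Within the members, the GATA share differed with how often a region was called over 4 to 24 h and with its rank. It was 76.3% of the 1306 members called in all 8 libraries, 53.8% of those in 7, 47.7% of those in 6, 37.9% of the 124 members in 4 or 5, and 41.8% of the 79 members in 3 or fewer. In 4 equal groups of members by rising mean score percentile the share was 42.7%, 68.3%, 81.5% and 82.9%. Members with a match were called at 95.5% ± 1.12 at 4 h and 93.6% ± 0.355 at 24 h, and members without one at 83.6% ± 1.30 and 84.7% ± 3.77 (SD, n = 2 each). Their median percentiles were 79.0 ± 1.14 and 59.1 ± 0.864 at 4 h. The median width was 676 bp in the 1306 and 526 bp in the 79, and its part in these shares was not tested.

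The AP-1 sequence, TGAGTCA or TGACTCA on either strand, was rarer in members than in the regions that opened at 2 h and were absent at 48 h, the reverse of the GATA difference. It was present in 278 members (16.0%) and in 47.6% of those regions, against 10.4% of all distal regions. In the single-replicate definitions these shares were 12.9% ± 0.727 and 40.6% ± 0.251 (SD, n = 2 definitions). Regions first called at 48 h held it in 3.77% and regions called throughout in 5.84%, both below members, as for GATA. Matches of the GATA and AP-1 letters can share at most 1 base.

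The regions opened at 2 h therefore fell into 4 classes by these 2 sequences. Of 3135 regions with GATA and without AP-1, 32.7% were members, and of 2498 with AP-1 and without GATA, 4.24% were. This gap was 28.4 percentage points, and with the permuted letters WAGTAR in place of GATA it was still 18.3 points. Regions with both were members in 11.4% of 1506 cases, and regions with neither in 16.4% of 2666. In the single-replicate definitions the 4 shares were 34.5% ± 0.736, 5.88% ± 0.213, 13.2% ± 0.0628 and 26.3% ± 0.648 (SD, n = 2 definitions). By the number of GATA matches, 20.6% were members with 1 match, 32.8% with 2 and 44.6% with 3 or more.

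The calls at 4 to 24 h, which the choice of regions did not use, showed the same order of the 2 extreme classes. At 4 h, regions with GATA alone were called at 82.2% and 85.2% and regions with AP-1 alone at 57.1% and 59.8%. At 24 h the values were 45.9% and 46.2% against 7.05% and 7.41%. Regions with both sequences stood at 78.0% ± 1.97 at 4 h, above those with neither at 62.8% ± 2.52, and at 17.7% ± 1.31 at 24 h, below those with neither at 24.9% ± 0.637 (SD, n = 2 each). These classes are descriptions of sequence, and no binding of either factor was measured here.

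**Figure D4:**
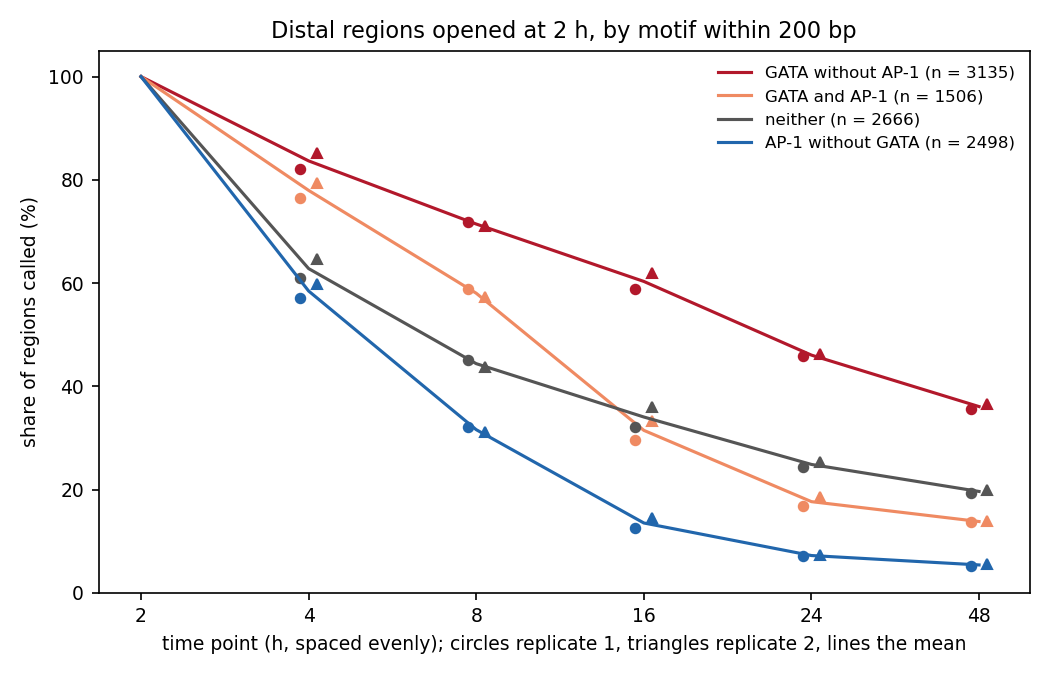
Share of the 9805 distal regions opened at 2 h that were called (%, vertical axis) at each later time point (h, horizontal axis), by GATA and AP-1 matches within 200 bp of sequence; circles are replicate 1, triangles replicate 2 and lines the mean. Regions with GATA alone end at 36.1% at 48 h and regions with AP-1 alone at 5.40%, and the classes with both and with neither cross between 8 h and 16 h.

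Within the members the order was similar but the range narrower. Members with GATA and without AP-1 (1024) were called at 94.8% in each 24 h library, and members with AP-1 and without GATA (106) at 73.6% and 81.1%. The 438 members with neither sequence were called at 84.0% and 88.8% there.

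Other sequences differed less. The SOX letters CATTGT were in 18.1% of members, 13.5% of regions absent at 48 h, 24.96% of those first called at 48 h and 15.2% of all distal regions. The FOX letters TGTTTAC were in 3.45%, 2.68%, 5.99% and 3.44% of the same groups, and the TEAD letters CATTCC in 20.3%, 17.01%, 18.5% and 16.0%. The octamer ATGCAAA, recognised by POU factors such as OCT4, was in 5.06% of members and 6.19% of all distal regions. The KLF letters GGGTGG or GGGCGG were in 28.4% of members, 39.4% of regions called throughout and 30.1% of all distal regions. The nuclear receptor letters AAGGTCA were in 6.15% of members and 6.17% of all distal regions, the ETS letters CCGGAAG in 1.72% and 1.91%, and the CArG box, the site of SRF, in 1.03% and 0.916%. Each of these searches covered both strands of the same 200 bp.

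The position of the members relative to genes was close to that of all distal regions. Introns held 799 (45.9%), intergenic sequence 883 (50.7%) and exons 58 (3.33%), against 45.4%, 49.8% and 4.79% of all distal regions. The median distance to a TSS was 17422 bp and that of all distal regions 18483 bp. Only 86 members (4.94%) had another member within 10 kb, against 14.5% among the larger group of regions absent at 48 h. Their density ranged from 1.53 to 2.39 per 100 distal regions over the 19 autosomes. Assigning each region to the nearest TSS within 50 kb linked 1327 members (76.3%) to 1173 genes, against 73.9% of all distal regions. Of these genes 1038 had 1 member, 120 had 2, 12 had 3, 2 had 4 and 1 had 5.

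Hk2, which encodes the glycolytic enzyme hexokinase, was nearest to most members. Of its 18 distal regions 5 were members, all 5 were called in all 12 induced libraries, and all 5 held a GATA match. Bcar3, a signalling adaptor gene, and Frmd4b, a scaffold protein gene, had 4 each. The 9 further genes of the ranked list had 3 each. Among them were Klf6, a Krüppel-like factor gene, Plet1, a gene of extraembryonic and progenitor cells, Akap12, a kinase anchor gene, and Eps8, an actin regulator gene whose 3 members had 0 GATA matches. Klf6 and Eps8 are in the blastocyst PrE list.

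The study's list of PrE genes, which was derived from blastocyst cells and not from these libraries, was nearest to 125 of the 1327 members (9.42%), against 4.98% of all distal regions and 4.40% of regions absent at 48 h. In the single-replicate definitions the share was 7.72% ± 0.195 in members, 5.04% ± 0.0183 in all distal regions and 7.06% ± 0.157 in regions first called at 48 h (SD, n = 2 definitions). These 125 members belonged to 100 of the 577 listed genes on autosomes, of which 77 had 1 member, 21 had 2 and 2 had 3. A GATA match was present in 76.8% of them and in 66.3% of members near other genes, and 80.8% and 74.0% were called in all 8 libraries of 4 to 24 h. The study's epiblast list was nearest to 28 members (2.11%), against 2.35% of all distal regions.

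Members near genes of the lists set up for this report are described by the role of the gene. Among the PrE transcription factor genes reported here, Foxa2 had 2 members, which is 0.151% of the members with a gene within 50 kb, against 0.0958% of such distal regions for this list. Foxa2 encodes a forkhead factor of endoderm. Its nearer member, 4701 bp from the TSS, had percentiles of 56.6 and 56.9 at 2 h, 91.3 and 86.1 at 8 h and 90.8 and 90.9 at 48 h. The 48 h values were above both 2 h values and changed little after 8 h.

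Of 7 PrE receptor and endocytic adaptor genes, Cubn, Lrp2 and Pdgfra had 5 members, 0.377% of those with a gene within 50 kb, against 0.129% of all distal regions. The member in an intron of Cubn, at chr2:13489308-13489919, went from 22.9 and 25.4 at 2 h to 87.1 and 81.6 at 4 h and 97.1 and 97.6 at 16 h, and stood at 94.1 and 96.7 at 48 h. All 10 later values lay above both 2 h values. The member in an intron of Lrp2, at chr2:69582756-69583276, went from 58.7 and 56.5 at 2 h to 82.2 and 87.3 at 4 h and 95.0 and 94.5 at 48 h. A second Lrp2 member, 18036 bp away from the TSS and with 0 GATA matches in its 200 bp, behaved otherwise. It lay at 0.819 and 6.33 at 2 h, was at or below 32.7 wherever it was called up to 24 h, and reached 88.1 and 82.4 at 48 h. Pdgfra, the receptor gene that marks early PrE, had a member at 70.5 and 79.9 at 2 h and 95.6 and 89.2 at 48 h, and another that was at 1.97 and 31.2 at 2 h, at 89.6 and 81.0 at 8 h and at 60.9 and 60.5 at 48 h.

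Of 9 basement membrane genes, Col4a1, Col4a2, Lamc1 and Sparc had 7 members, 0.528% against 0.237% of all distal regions. PrE and its parietal derivative secrete a thick basement membrane of laminin and collagen IV. A member nearest to Col4a1, at chr8:11317270-11317890 in an intron of the neighbouring Col4a2, went from 7.39 and 28.4 at 2 h to 79.3 and 82.0 at 4 h and 97.0 and 96.7 at 48 h. Another Col4a1 member was at 81.1 and 72.9 at 2 h and at 72.1 and 77.6 at 48 h. The printed Col4a2 member, without a GATA match in its centre, went from 47.0 and 53.9 at 2 h to 98.4 and 99.0 at 8 h and 89.4 and 87.3 at 48 h. The printed Lamc1 member, 26042 bp from the TSS, began high, at 86.5 and 78.1, and was at 99.6 in each 48 h library. The other Lamc1 member was at 83.3 and 76.3 at 2 h and lower, at 69.2 and 55.4, at 48 h. The member in Sparc, which encodes a matrix glycoprotein, was higher at 4 to 16 h, with a range of 95.1 to 98.0, than at 2 h (59.9 and 59.2) or 48 h (58.6 and 64.5).

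Members also lay near genes of naive pluripotency. Esrrb, Klf4, Prdm14, Tbx3 and Zfp42 had 1 each and Klf5 had 2, which is 0.528% against 0.235% of all distal regions. All 7 were called in all 8 libraries of 4 to 24 h, as were 75.1% of all members. The printed Klf5 member was among the strongest from the start, at 97.4 and 98.0 at 2 h, 97.9 and 97.2 at 8 h and 92.4 and 89.9 at 48 h. The Klf4 member was highest at 16 h, at 91.6 and 89.4, and was at 29.1 and 34.2 at 2 h and 50.4 and 55.5 at 48 h. The member in Esrrb, an orphan nuclear receptor gene, was at 68.4 and 73.7 at 2 h and 92.4 and 88.3 at 48 h.

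In the remaining lists, the immediate-early gene Fosb had 2 members, and the ERK feedback genes Dusp4 and Spry4 had 1 each. Of the actin and SRF target genes, Actb and Vcl, the gene of the adhesion protein vinculin, had 1 each. The trophectoderm keratin gene Krt8 had 1. The first 3 lists each held 0.151% of members with a gene within 50 kb, against 0.104%, 0.124% and 0.0657% of such distal regions. The trophectoderm list held 0.0754%, against 0.0985%. The lists of visceral endoderm secreted proteins and of formative epiblast genes had 0, and these lists hold 0.0219% and 0.0451% of all distal regions. The Krt8 member was lower late in the course and went from 97.3 and 96.2 at 2 h to 77.4 and 71.9 at 24 h and 54.5 and 49.4 at 48 h. The Spry4 member went from 43.2 and 49.2 at 16 h to 2.02 and 1.59 at 24 h. The Dusp4 member, near the gene of a phosphatase that acts on ERK, went from 9.37 and 4.86 at 2 h to 72.6 and 74.5 at 8 h and was at 38.3 and 47.2 at 48 h. With 2 libraries per time point these single-region values carry no test.

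The strongest members by mean rank over 4 to 24 h had Commd7, Fhod1, Mras, Chd9, Spin1, Ifnk, Efna4 and Cntnap2 as nearest genes. Of these members 5 were in an intron of the gene named, and that of Ifnk was in an intron of Mob3b. The Cntnap2 member was intergenic and 84007 bp from the TSS, beyond the 50 kb used to assign genes. The Commd7 member, at chr2:153625516-153626203, was at 71.2 and 70.4 at 2 h and at 99.4 or above in the other 10 induced libraries. The Fhod1 member, in a gene of an actin-assembling formin, was already at 95.6 and 94.2 at 2 h and at 98.2 or above later. The members of Gfpt2 and Itpr1, with 5 GATA matches each, went from 73.6 and 68.4 and from 38.8 and 59.3 at 2 h to 99.0 and 99.2 and to 96.0 and 96.7 at 4 h. Many matches did not go with a high rank in every case: the members near Cfap77 and Ppp1r14a, with 7 matches each, several of them overlapping in short tandem repeats, were at 28.4 and 17.8 and at 47.1 and 48.3 at 2 h, and each lacked a call in 1 library of 24 h. The Cfap77 member stood out at 8 h, at 91.5 and 85.2.

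**Figure D5:**
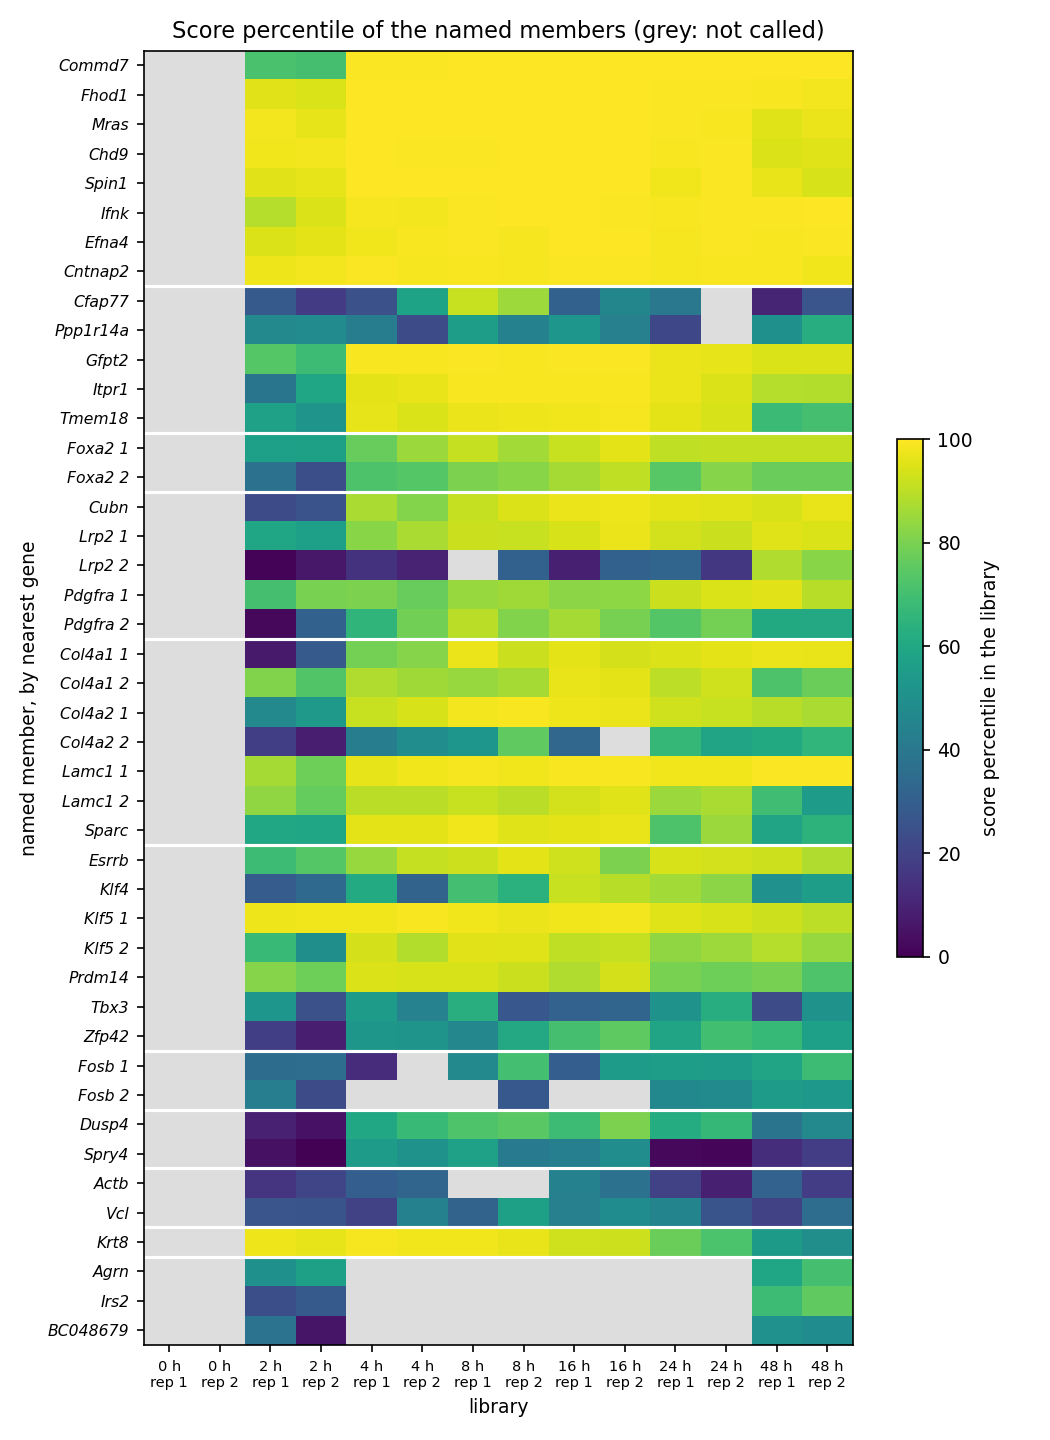
Score percentile within the library (colour, 0 to 100; grey, not called) of the 44 named members (rows, labelled by nearest gene) in the 14 libraries (columns). White lines separate, from the top, the strongest members, those with most GATA matches, the gene lists by role and the 3 members called in fewest libraries of 4 to 24 h, which are grey in all 8.

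The genes nearest to members mostly had open starts before induction. Of the 1173 genes, 883 (75.3%) had a peak within 1 kb of a TSS in both 0 h libraries, against 68.7% of the genes nearest to any distal region and 75.6% of those nearest to regions opened at 2 h and absent at 48 h. A start absent in both 0 h libraries and called in both 48 h libraries was found for 54 genes (4.60%), against 3.75% for any distal region and 5.04% for regions first called at 48 h.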

How the data were processed

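The authors made 1 peak list per ATAC-seq library with the ENCODE pipeline, in which, per the file names, peaks passed an irreproducible discovery rate of 0.05 on pseudoreplicates of the same library and a blacklist filter. The deposited lists thus pool no replicates. They give 1 score per peak, on a scale not stated by the authors, and no depth. The submitters' processing notes name deepTools, and the builds mm10 and GRCm38.

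On the 19 autosomes, peaks sharing 1 bp or more were merged. TSSs were transcript starts of protein-coding genes in GENCODE M21. Scores were ranked within a library, and medians were taken over the regions called there. GC content was matched in 10 classes of equal member number. Members and lists were chosen with earlier results of these data known. Named regions were the 8 steady members with the highest mean percentile, the 5 with most GATA matches, up to 2 per gene of the lists by role, the 3 called in fewest libraries, and the 12 genes nearest to most members. Time points were compared by exact permutation of the F statistic over 2520 arrangements, and members with regions absent at 48 h by 256 exact sign flips, adjusted by the Benjamini-Hochberg method over 4 tests. No other test was run. The test that the authors applied to reads needs counts, which the lists do not give. A gene of the lists by role is not reported here, nor is 1 motif search.

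Alternatives covered peak number, overlap, merging, distance, TSS set, motif window, GC content and each library. Rank deviations of single regions did not follow the replicate number, with correlations between -0.05 and 0.09 over 15 pairs of time points. Peak numbers were higher in replicate 2 at every time point, for instance 59232 against 55776 at 0 h and 60156 against 60140 at 8 h. A shift of whole libraries with the replicate number was not tested. Python 3.11.15, numpy 2.4.6, scipy 1.17.1, pysam 0.24.0, samtools 1.23.1 and matplotlib 3.10.9 were used.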

Additional observations from a re-analysis of the deposited data

How the results depend on the processing

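The count of members stayed between 1409 and 1718 under the 5 alternatives of peak number, overlap, merging, distance and TSS set, and was 3832 when 1 library with a call at 2 h and at 48 h was enough. The differences of members from regions absent at 48 h in share called and in score percentile kept their direction and passed the threshold in those 5. Their direction could be foreseen, since 48 h calls split the groups. All differences in GATA and AP-1 share kept their direction there. Differences below are members minus the other group, in percentage points, and the cause of each change was not tested.

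With the 50000 highest peaks, the F statistic of the share called was 13.3, the GATA share of members 67.7%, its difference from regions absent at 48 h 26.0 and from those called throughout 39.6, the AP-1 difference -30.6, and 76.4% of members were called in all 8 libraries. With 50% of a region covered, the GATA share was 70.5%, its differences from regions absent at 48 h, first called at 48 h and called throughout were 28.8, 14.9 and 41.1, the share kept was 24.8 points higher with GATA alone than with AP-1 alone, 69.6% of members were called in all 8 libraries and 9.69% were nearest to PrE genes. With peaks within 100 bp merged, the GATA share was 66.6%, the 3 differences were 24.95, 9.87 and 38.5, and 74.8% were called in all 8. At a distance over 5 kb, the GATA share was 69.3%, the differences from regions absent at 48 h and called throughout were 26.7 and 40.4, the AP-1 difference was -30.6, the gap in share kept 27.3 and the PrE share 9.64%. With TSSs of all biotypes, the GATA share was 69.4% and the 3 differences were 27.6, 12.8 and 40.3. The PrE share was 9.92% within 10 kb.

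In the whole region the GATA share of members was 89.8%, the 3 differences were 22.5, 20.6 and 27.9 and the gap in share kept 26.2. Within 50 bp of the centre they were 46.1%, 21.5, 8.03, 30.7 and 29.7. With the permuted letters they were 23.9%, 0.372, -2.82, 4.13 and 18.3, so that the difference from regions first called at 48 h reversed. With GC content standardised the 3 differences were 28.1, 14.5 and 31.5. Whole regions differed in length. The median width was 640 bp in members, 516 bp in regions absent at 48 h, 384 bp in those first called at 48 h and 673 bp in those called throughout. Whole-region GATA matches per kb were 3.94, 2.52, 3.46 and 1.72 in the same order. The part of width in the whole-region shares was not tested.

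With libraries left out, singly or by replicate number, members numbered 1740 to 3603, the GATA share was 54.3% to 68.7%, and its differences were 13.9 to 26.9 from regions absent at 48 h, -0.354 to 14.4 from those first called at 48 h and 25.8 to 40.7 from those called throughout. Leaving out replicate 2 reversed the second of these to -0.354, and leaving out replicate 1 gave 0.344. The AP-1 difference was -31.7 to -27.4, the gap in share kept 26.0 to 30.9, the share called in all libraries 64.3% to 76.7%, and the PrE share 7.58% to 9.57%. The difference in share called was 50.3 to 61.4 and in score percentile 26.6 to 39.2. With 1 replicate number these rest on 4 libraries, for which the smallest exact permutation p is 0.125. The F statistics were 0.105 to 2.97 for the share called and 19.8 to 162 for the score percentile. No F was computed from 1 replicate number, which leaves 1 library per time point.

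Under the replicate block, the score percentile over time had F = 33.2 and an adjusted p of 0.111 (exact permutation test), so that its call was lost, and the share called did not pass the threshold there either. The replicate numbers share no source in the labels. They did not pair the rank deviations of single regions, but replicate 2 had more peaks than replicate 1 at every time point. Restricted, after seeing the data, to members called in all 12 induced libraries, the F of the score percentile passed the threshold.

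Peak calls depend on depth, which the lists do not give, and scores are comparable only as ranks within a library. Absence of a call is not absence of accessibility.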
